A study of Mus musculus with 12 samples.

Results

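The nuclear genome encodes most subunits of respiratory complex I, the NADH:ubiquinone oxidoreductase of the inner mitochondrial membrane. The transcripts of 36 of these genes were followed here in mouse iWAT, the inguinal subcutaneous fat depot in which beige adipocytes form upon cold. The members were the rows of the deposited count table, which lists 23420 genes, whose symbols are on a list of nuclear-encoded complex I subunits, and all 36 were found. C57BL/6 male mice of 10 weeks carried loxP sites on both alleles of HIF2a (HIF2a loxP/loxP). Mice without Cre are called WT. HIF2α AKO mice carried in addition Adipoq-Cre, a recombinase driven by the adiponectin promoter and therefore directed to adipocytes, while the other cells of the depot keep HIF2a. Mice of each genotype were kept either at thermoneutrality (TN, 30 °C for 1 week) or in the cold (4 to 6 °C for 3 days), with 3 mice in each of the 4 groups. RNA came from whole iWAT, so every value sums over adipocytes and the other cells of the depot.

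Complex I passes electrons from NADH to ubiquinone and pumps protons across the inner membrane. Its matrix arm holds the N module, which takes electrons from NADH, and the Q module, which hands them to ubiquinone. Its membrane arm pumps the protons. The core subunits do the catalysis. The accessory subunits surround them, and they are needed for assembly and stability. In thermogenic adipocytes the respiratory chain builds the proton gradient that uncoupling protein 1 dissipates as heat.

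One member, Ndufs5, an accessory subunit of the proximal membrane arm (chr4:123712710-123718202, minus strand, GRCm38), could not be measured. It had 0 counts in 10 of the 12 libraries and 1 count in each of the other two, TN WT replicate 3 and cold HIF2α AKO replicate 2. A processed copy without introns, BC002163 (chr16:42955631-42955949, plus strand, annotated as a processed pseudogene), is a separate row of the table. From the Ndufs5 start codon on, 317 of 319 bases of its mRNA (99.4%) were identical to the copy, and the longest identical run was 214 bases. The first 120 bases of both are shown because they hold both differences, T81C and A105G, counted from 1 at the A of the start codon with the Ndufs5 base first. The capitals mark these bases.

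Ndufs5: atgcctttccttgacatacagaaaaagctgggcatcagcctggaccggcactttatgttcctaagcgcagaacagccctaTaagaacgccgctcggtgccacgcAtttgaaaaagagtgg

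BC002163: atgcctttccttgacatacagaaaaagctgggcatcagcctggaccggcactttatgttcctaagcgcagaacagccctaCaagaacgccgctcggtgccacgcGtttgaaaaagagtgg

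BC002163 had between 6 and 16 counts in the TN libraries and between 16 and 34 in the cold libraries. Reads that fit both places equally well are assigned to neither in a count of unique alignments. The share of listed reads that aligned to several places was 4.40 to 5.71% at TN and 6.30 to 9.33% in cold. Its part in the Ndufs5 counts was not tested. Among all members, 15 shared at least one 50-base stretch of exon with another annotated gene and 21 shared none. The share of such stretches was highest in Ndufb4 (37%), Ndufs3 (35.8%), Ndufa12 (26.2%), Ndufb9 (23.4%) and Ndufs5 (21.7%), and lay under 10% in the other members. Counts of the first 4 are therefore uncertain as absolute levels.

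None of the 5 short motifs searched stood upstream of all members. RefSeq start sites (GRCm38.p6) gave a window of 250 bases upstream for 33 of the 36 members, all but Ndufs1, Ndufa2 and Ndufb9, and for 11228 of the tested genes. Where a gene had several windows, the one farthest upstream was taken. On either strand, GCGCANGC, the core of the NRF1 site, stood in 8 member windows (24.2%) against 15.1% of all windows. CCGGAAG, an ETS core that GABPA also binds, stood in 3 (9.09% against 12.4%). AAGGTCA, a core site of the estrogen-related receptors, stood in 3, namely Ndufs5, Ndufb2 and Ndufb4 (9.09% against 2.89%). Ndufs5, which also held the NRF1 core, was too low to be tested and is not among the windows of all tested genes. ACGTG, the core of the hypoxia response element to which HIF proteins bind and which also lies inside the E-box CACGTG, stood in 4 (12.1% against 20.9%), namely Ndufv1, Ndufa7, Ndufa1 and Ndufa3. AANATGGCG, a YY1 core, stood in Ndufb11 alone (3.03% against 1.9%). These are matches of letters, not measured binding. The windows of Ndufb6 and Ndufa5, which had the largest cold response, and of Ndufa7, which had the smallest, are shown with the matches in capitals. The window of Ndufb8, next after Ndufa5 in cold response, held no match and is not shown. In Ndufb6 the capitals are the reverse complement of the ETS core. In Ndufa5 they are the NRF1 core. In Ndufa7 they are ACGTG on both strands, which overlap. The gene coordinates of Ndufa5 given below (chr6:24518666-24528013) come from another annotation, with a start farther upstream. The Ndufa5 window lies inside these coordinates.

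Ndufb6 (chr4:40279422-40279671, minus strand): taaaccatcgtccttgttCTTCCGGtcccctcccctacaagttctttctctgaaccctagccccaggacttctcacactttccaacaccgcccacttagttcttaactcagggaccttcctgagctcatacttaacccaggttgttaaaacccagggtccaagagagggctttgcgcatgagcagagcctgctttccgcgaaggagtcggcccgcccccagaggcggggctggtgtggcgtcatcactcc

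Ndufa5 (chr6:24527691-24527940, minus strand): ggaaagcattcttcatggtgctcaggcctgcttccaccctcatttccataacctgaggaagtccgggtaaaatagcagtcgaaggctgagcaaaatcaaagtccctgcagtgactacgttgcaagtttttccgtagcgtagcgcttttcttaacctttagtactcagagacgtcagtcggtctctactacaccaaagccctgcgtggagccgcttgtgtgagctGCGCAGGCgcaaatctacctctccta

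Ndufa7 (chr17:33824322-33824571, plus strand): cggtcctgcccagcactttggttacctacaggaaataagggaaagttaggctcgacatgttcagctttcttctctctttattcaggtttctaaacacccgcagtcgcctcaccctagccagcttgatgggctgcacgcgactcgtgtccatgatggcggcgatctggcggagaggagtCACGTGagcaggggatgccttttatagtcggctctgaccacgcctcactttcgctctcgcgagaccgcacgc

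The libraries held between 22368316 and 35204631 counts on genes. Levels are given as CPM, counts scaled to a common library size after TMM normalization, which corrects library totals for composition. After a filter on low counts 15306 genes were tested, among them 35 members, all but Ndufs5. The genotypes are given as labelled, because counts over the whole of Epas1, the gene of HIF2α, were not lower in HIF2α AKO. Epas1 stood at 372, 278 and 430 CPM in TN WT, 289, 394 and 360 in TN HIF2α AKO, 576, 562 and 743 in cold WT and 985, 743 and 748 in cold HIF2α AKO. A whole-gene count does not show whether a floxed stretch is missing. Of the marker lists, 12 skeletal muscle genes summed to 1982 CPM in TN HIF2α AKO replicate 2 and 1723 in cold HIF2α AKO replicate 1, against 14.5 to 116 in the other libraries. The 6 epithelial genes summed to 200 CPM in TN WT replicate 3 and to at most 10.3 elsewhere.

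Upon cold, the transcripts of complex I rose together in both genotypes. In WT, 35 of 35 tested members were called higher in cold than at TN by edgeR's quasi-likelihood test (adjusted p at most 0.0133), where 15.6% of all tested genes were, and 0 were called lower (5.68% of all genes). Their log2 fold changes ran from 0.82 to 1.84 with a median of 1.39, a fold of 2.62, and the median of all tested genes was -0.03. In HIF2α AKO, 35 of 35 were called higher (adjusted p at most 0.00956), against 15.6% of all genes, and 0 lower (11.5%). There the log2 fold changes ran from 0.85 to 2.15 with a median of 1.59, a fold of 3.02, and the median of all genes was -0.05. In each genotype the 3 cold libraries lay above the 3 TN libraries in 35 members, as they did in 22.7% of all genes in WT and 24.9% in HIF2α AKO. Averaged over both genotypes, the median was 1.50 (a fold of 2.83), and 35 of 35 members were higher against 24.8% of all genes, and 0 lower against 24.0%. In whole tissue, fewer cells of a type and less RNA per cell cannot be told apart, and this holds for every change below.

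Summed over the members, complex I transcripts stood at 2280, 1704 and 2861 CPM in the TN WT libraries and at 1946, 2898 and 2475 CPM in TN HIF2α AKO. In cold the sums were 5697, 5708 and 7015 CPM in WT and 8912, 6273 and 6946 CPM in HIF2α AKO. The group means were 2282 ± 578, 2440 ± 477, 6140 ± 757 and 7377 ± 1371 CPM (SD, n = 3) in the same order. Every cold library lay well above every TN library, whereas the genotypes overlapped at both temperatures. Single libraries moved as a whole. TN WT replicate 2 held the lowest level of the 12 libraries in 34 of 35 members, and cold HIF2α AKO replicate 1 held the highest in 34.

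**Figure D1:**
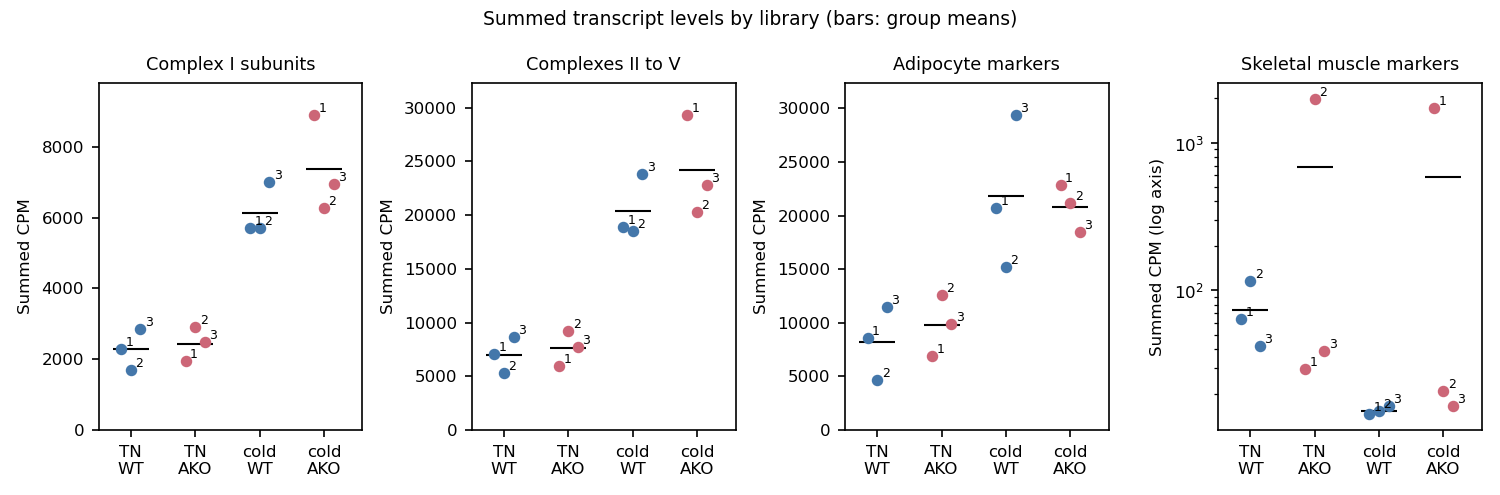
Summed CPM per library (each point is 1 mouse, the digit is its replicate number, bars are group means) of complex I subunits, subunits of complexes II to V, adipocyte markers and skeletal muscle markers, the last on a log axis. Complex I sums were 1704 to 2898 CPM at TN and 5697 to 8912 CPM in cold, adipocyte marker sums rose as well, and muscle markers stood out in TN AKO replicate 2 and cold AKO replicate 1.

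The summed adipocyte markers moved with temperature too, though not every marker did. The 8 adipocyte markers (Adipoq, Plin1, Fabp4, Cidec, Pparg, Lipe, Lep and Retn) summed to between 4631 and 12606 CPM at TN and between 15226 and 29419 CPM in cold, and none was at 0 in any library. Of these markers 4 of 8 were called higher in WT (median log2 fold change 1.04), 1 of 8 in HIF2α AKO (median 0.68) and 6 of 8 over both genotypes, and the genotype by temperature test called 0. Fabp4 alone stood at 1959 to 5580 CPM at TN and 8932 to 16663 in cold. Adipoq changed least over both genotypes (log2 0.21) and overlapped between temperatures (899 to 2121 and 1068 to 2467 CPM). Plin1, Pparg, Lep and Retn overlapped as well. Of the other lists, 7 of 7 thermogenic markers were called higher over both genotypes (17.60 to 70.90 CPM at TN, 3326 to 8543 in cold). Lymphocyte markers were called lower in 8 of 8 (950.0 to 1574 CPM at TN, 518.0 to 916.0 in cold). Within WT 1 of 8 and within HIF2α AKO 2 of 8 were. Over both genotypes, 3 of 9 macrophage and 1 of 6 epithelial markers were called lower, 2 of 6 endothelial markers higher and 0 of 12 muscle markers. Of all genes, 24.8% were called higher and 24.0% lower. The complex I sum divided by the adipocyte marker sum was 0.230 to 0.368 at TN and 0.238 to 0.391 in cold, and these ranges overlapped. With counts scaled to the adipocyte markers instead of TMM, a choice made after the values were seen, the median log2 fold change in cold fell to 0.35 in WT and 0.78 in HIF2α AKO, while the median of all genes moved to -1.15 and -0.94. On that scale 2 of 35 members (Ndufb6 and Ndufb8) were called higher in WT, 14 of 35 in HIF2α AKO and 22 of 35 over both genotypes, and none was called lower. Background on that scale was 1.65%, 2.19% and 2.99% of all genes called higher, and 66.1%, 36.1% and 78.0% called lower, in the same order. The sign turned for Ndufa7 and Ndufa2 in WT (-0.21 and -0.15, adjusted p 0.538 and 0.686 by edgeR) and for Ndufa7 over both genotypes (-0.11, adjusted p 0.663 by edgeR). How much of the rise goes with the amount of adipocyte RNA was not tested.

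**Figure D2:**
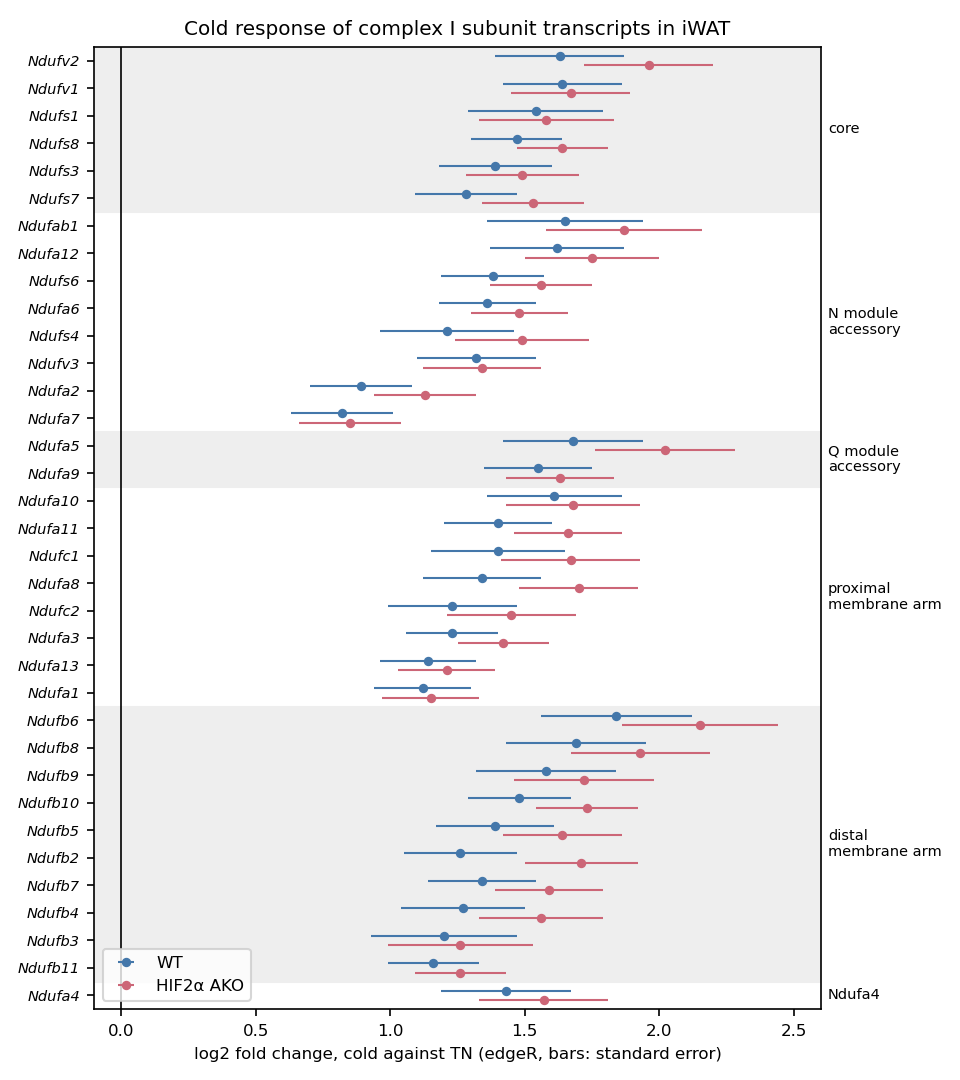
Log2 fold change of cold against TN for the 35 tested members in WT and HIF2α AKO (points, edgeR estimates after TMM scaling, bars are standard errors), grouped by role. Estimates lie between 0.82 and 2.15 and those of Ndufa7 and Ndufa2 lie lowest in both genotypes. Scaled to adipocyte markers, these 2 members fall below 0 in WT.

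The 6 core subunits of the matrix arm rose by log2 fold changes of 1.28 to 1.64 in WT and 1.49 to 1.96 in HIF2α AKO. Ndufv1, which binds NADH through its flavin, stood at 126, 93.9 and 154 CPM in TN WT, at 115, 166 and 149 in TN HIF2α AKO, at 365, 343 and 453 in cold WT and at 565, 376 and 435 in cold HIF2α AKO. Its cold libraries all lay above its TN libraries, and the log2 fold change over both genotypes was 1.66 ± 0.16 (SE, edgeR adjusted p = 2.75e-05). Ndufv2, which carries an iron-sulfur cluster beside Ndufv1, stood at 67.1, 53.4 and 86.8 CPM in TN WT, 52.3, 87.5 and 68.0 in TN HIF2α AKO, 175, 219 and 246 in cold WT and 341, 233 and 233 in cold HIF2α AKO. It had the largest change of the core, 1.79 ± 0.17 (SE, edgeR adjusted p = 3.17e-05). Cold WT and cold HIF2α AKO overlapped in Ndufv1 and Ndufv2.

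Ndufs1, the iron-sulfur subunit of the N module, stood at 102, 81.6 and 127 CPM in TN WT, 81.8, 142 and 129 in TN HIF2α AKO, 266, 263 and 375 in cold WT and 433, 304 and 316 in cold HIF2α AKO. Ndufs3, a Q module core subunit without a cluster, stood at 73.3, 54.2 and 88.4 CPM in TN WT, 62.7, 90.4 and 79.8 in TN HIF2α AKO, 172, 173 and 223 in cold WT and 266, 191 and 199 in cold HIF2α AKO. Their changes over both genotypes were 1.56 ± 0.17 and 1.44 ± 0.15 on the log2 scale (SE, edgeR adjusted p = 7.83e-05 and 4.51e-05). Again the cold and TN libraries did not overlap and the genotypes did. Ndufs7, which holds the last cluster before ubiquinone, stood at 76.1, 64.1 and 100 CPM in TN WT, 67.7, 96.8 and 87.3 in TN HIF2α AKO, 197, 184 and 203 in cold WT and 289, 199 and 241 in cold HIF2α AKO. Ndufs8, another iron-sulfur subunit of the Q module, stood at 67.9, 59.2 and 74.9 CPM in TN WT, 66.0, 83.0 and 78.7 in TN HIF2α AKO, 191, 173 and 197 in cold WT and 288, 181 and 242 in cold HIF2α AKO. Ndufs7 had the smallest change of the core (1.41 ± 0.13, adjusted p = 3.16e-05 by edgeR) and Ndufs8 changed by 1.56 ± 0.12 (SE, adjusted p = 1.10e-05 by edgeR), the smallest adjusted p of the members. Scaled to adipocyte markers, 5 of the core subunits were called higher over both genotypes, where 2.99% of all genes were. Ndufs7 was not (0.47, adjusted p 0.0660 by edgeR). Within WT no core subunit was called on that scale, and within HIF2α AKO only Ndufv1, Ndufv2 and Ndufs1 were.

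The 8 accessory subunits of the N module differed most among themselves. Their log2 fold changes over both genotypes ran from 0.83 in Ndufa7 to 1.76 in Ndufab1, the mitochondrial acyl carrier protein, which also binds in the membrane arm, with a median of 1.39. The 2 Q module accessory subunits, Ndufa9 and Ndufa5, changed by 1.59 and 1.85. The 8 tested subunits of the proximal membrane arm ran from 1.13 in Ndufa1 to 1.64 in Ndufa10 with a median of 1.43, and the 10 of the distal membrane arm from 1.21 in Ndufb11 to 1.99 in Ndufb6 with a median of 1.50. Ndufa4, which was long listed with complex I and is now known to be part of complex IV, stood at 115, 88.4 and 159 CPM in TN WT, 102, 166 and 131 in TN HIF2α AKO, 316, 294 and 367 in cold WT and 477, 335 and 369 in cold HIF2α AKO, which do not overlap between temperatures.

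Levels between genes were compared per length, as RPKM over the length of each gene's principal mRNA. In TN WT they ran from 9.71 RPKM in Ndufb2 to 228 in Ndufa4 with a median of 68.7, and in cold WT from 23.3 to 614 with a median of 180. Ndufa4, Ndufb8, Ndufb9 and Ndufb10 held the 4 highest levels in both WT groups, in that order, and Ndufb4 and Ndufb2 the lowest. The span from highest to lowest was 23.4-fold in TN WT and 26.4-fold in cold WT. In HIF2α AKO the highest level was that of Ndufa4 at TN (250 RPKM) and that of Ndufb8 in cold (757 RPKM, with 741 for Ndufa4). Within the order some members moved. Ndufa7 went from rank 6 to rank 12 of 35, Ndufa2 from 8 to 15, Ndufb6 from 24 to 19 and Ndufv1 from 14 to 8. Ndufb2 was divided by an mRNA of 2413 bases, long for this family, so its place at the bottom depends on the transcript chosen. These ranks are a description and neighbouring levels were not tested against each other.

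To find subunits that moved apart from the rest, the counts were scaled to the members themselves, so that the median subunit is level by construction and a value of 0 means a change equal to that of the typical subunit. Some members then lie above and others below. In cold against TN over both genotypes, 24 of 35 members lay within 0.2 (log2) of 0. There, 5 members were called higher, Ndufb6, Ndufa5, Ndufb8, Ndufv2 and Ndufab1, and 5 were called lower, Ndufa7, Ndufa2, Ndufa1, Ndufa13 and Ndufb11. On this scale 1.53% of all tested genes were called higher and 94.0% lower. With so many genes past the limit, the adjustment raised the p-values only slightly. Libraries of cold and TN did not overlap on this scale in 6 members that were higher (Ndufv1, Ndufv2, Ndufa12, Ndufa5, Ndufb6 and Ndufb8) and in the 5 that were called lower. Of all tested genes, 1.06% lay higher and 84.5% lower without overlap on this scale. Ndufab1 was called but its libraries overlapped, and it lost the call in 11 of 16 alternative settings. Within WT, 1 member was called higher and 2 lower, where 1.35% and 89.8% of all genes were. Within HIF2α AKO, 3 were called higher and 4 lower, where 1.19% and 91.9% of all genes were.

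**Figure D3:**
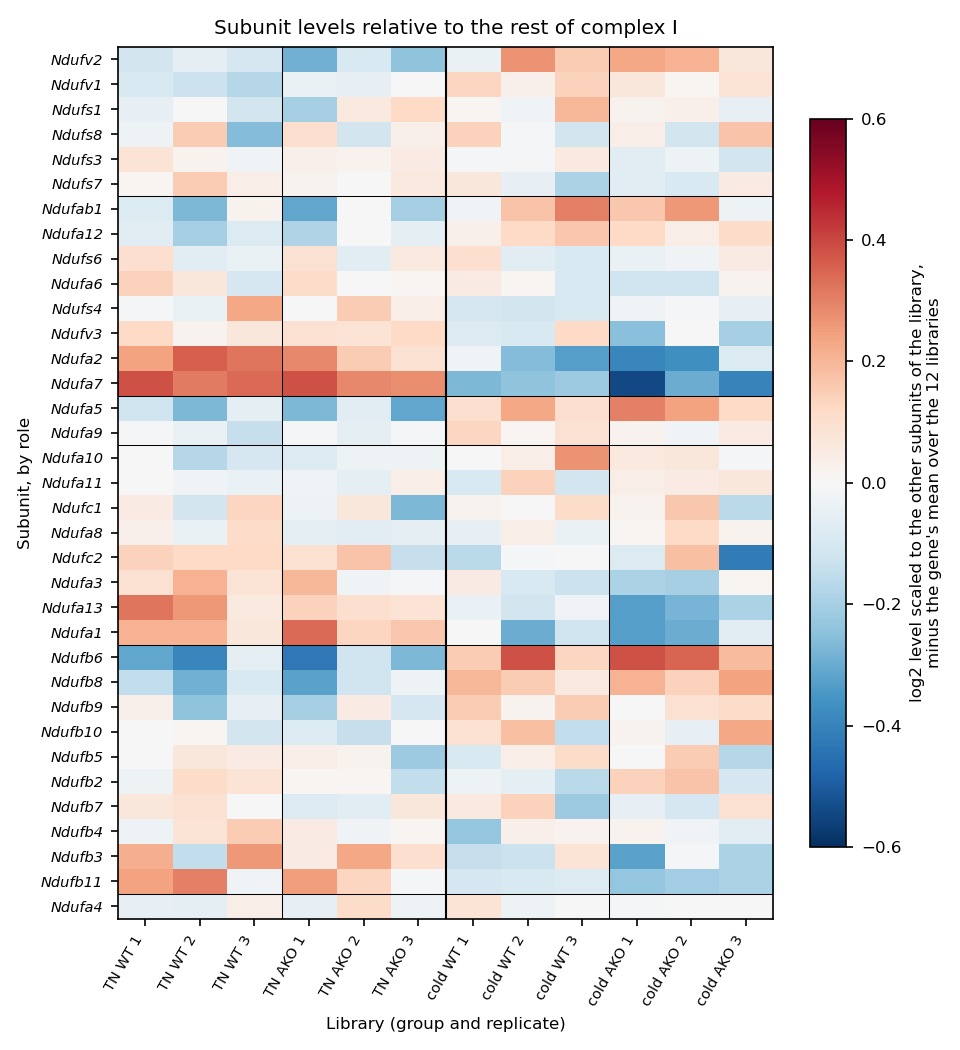
Log2 level of the 35 tested members in each library, scaled to the other subunits and centred on each gene's mean over the 12 libraries (colour), by role (rows, core at the top) and library (columns, TN left of the thick line). Ndufa7 and Ndufa2 go from red at TN to blue in cold, and Ndufb6 and Ndufa5 the other way.

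Ndufb6, of the distal membrane arm (chr4:40270591-40279421, minus strand), had the largest cold response. It stood at 29.7, 21.6 and 45.7 CPM in TN WT, 24.1, 43.5 and 34.0 in TN HIF2α AKO, 102, 121 and 124 in cold WT and 192, 131 and 129 in cold HIF2α AKO. All cold libraries lay far above all TN libraries, and all cold HIF2α AKO libraries above the cold WT ones. The change over both genotypes was 1.99 ± 0.20 on the log2 scale (SE), a fold of 3.99 (edgeR adjusted p = 4.43e-05). Relative to the other subunits it was 0.52 ± 0.12 (SE, edgeR adjusted p = 0.000922), and Ndufb6 was the one member called higher on this scale within each genotype (0.47 in WT, 0.58 in HIF2α AKO).

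Ndufa5, of the Q module (chr6:24518666-24528013, minus strand), stood at 26.5, 18.3 and 35.7 CPM in TN WT, 21.2, 35.3 and 26.0 in TN HIF2α AKO, 77.0, 85.3 and 94.8 in cold WT and 143, 95.2 and 96.7 in cold HIF2α AKO. Ndufb8, of the distal membrane arm (chr19:44548572-44555440, minus strand), stood at 122, 85.5 and 164 CPM in TN WT, 96.0, 160 and 148 in TN HIF2α AKO, 387, 380 and 434 in cold WT and 633, 417 and 494 in cold HIF2α AKO. Cold and TN did not overlap in either gene. Over both genotypes Ndufa5 changed by 1.85 ± 0.18 and Ndufb8 by 1.81 ± 0.18 (log2, SE, edgeR adjusted p = 3.94e-05 and 4.30e-05). Relative to the other subunits the changes were 0.37 ± 0.11 and 0.33 ± 0.11 (SE, edgeR adjusted p = 0.00642 and 0.0131). Ndufv2 followed with 0.30 ± 0.11 (SE, edgeR adjusted p = 0.0228).

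Ndufa7, an accessory subunit of the N module (chr17:33824572-33838317, plus strand), had the smallest cold response. It stood at 59.4, 43.5 and 75.0 CPM in TN WT, 53.0, 71.9 and 61.9 in TN HIF2α AKO, 94.6, 97.8 and 121 in cold WT and 127, 104 and 107 in cold HIF2α AKO. The temperatures did not overlap, but the gap between the highest TN and the lowest cold library was narrow. Its change over both genotypes was 0.83 ± 0.13 on the log2 scale (SE), a fold of 1.78 (edgeR adjusted p = 0.000748). Relative to the other subunits it was -0.66 ± 0.11 (SE, edgeR adjusted p = 4.92e-05), a ratio of 0.635, and it was called in WT (-0.58) and in HIF2α AKO (-0.73). On that scale its 6 TN libraries lay between 0.28 and 0.38 and its 6 cold libraries between -0.54 and -0.22, the widest separation of the members. Without cold WT replicate 3, Ndufa7 and Ndufb3 no longer passed in cold against TN in WT (0.70 and 1.01, edgeR adjusted p = 0.0575 and 0.0539).

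Ndufa2, another accessory subunit of the N module with a thioredoxin-like fold, stood at 55.0, 45.8 and 74.8 CPM in TN WT, 50.4, 66.5 and 55.2 in TN HIF2α AKO, 114, 97.4 and 113 in cold WT and 142, 100 and 135 in cold HIF2α AKO. Ndufa1, a small membrane subunit of the proximal arm encoded on the X chromosome (chrX:37187588-37191163, minus strand), stood at 47.6, 36.7 and 55.7 CPM in TN WT, 46.1, 58.1 and 51.1 in TN HIF2α AKO, 103, 84.0 and 117 in cold WT and 131, 93.2 and 121 in cold HIF2α AKO. Both were higher in every cold library than in any TN library. Their changes over both genotypes were 1.01 ± 0.13 and 1.13 ± 0.13 (log2, SE, edgeR adjusted p = 0.000226 and 8.69e-05). Relative to the other subunits they were -0.48 ± 0.12 and -0.37 ± 0.12 (SE, edgeR adjusted p = 0.00151 and 0.00794). Ndufa13, the proximal arm subunit also known as GRIM-19, and Ndufb11, a distal arm subunit also on the X chromosome, had relative changes of -0.32 and -0.30 (edgeR adjusted p = 0.0118 and 0.0210). Of the 10 members called apart from the rest, Ndufb6, Ndufa5, Ndufb8, Ndufa7, Ndufa2, Ndufa1 and Ndufa13 kept the call in all 16 alternative settings, and Ndufv2 and Ndufb11 in 12 each.

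The order of the members was alike in both genotypes. Across the 35 members, the log2 fold changes in WT and HIF2α AKO, which share no library, had a Pearson r of 0.91 and a Spearman rho of 0.88. This is a description across genes, which are not independent replicates. The change was larger in HIF2α AKO in 35 of 35 members, yet the difference of the changes passed the test in none. The test of genotype by temperature had a median of 0.19 (log2), between 0.01 in Ndufv3 and 0.45 in Ndufb2, against -0.03 for all genes. By edgeR 0 of 35 members were called, and 0 had an unadjusted p under 0.05, where 2.14% of all genes did and 0.00% were called. DESeq2 and limma voom also called 0 and had 0 at the unadjusted limit, where 2.49% and 5.31% of all genes were. The smallest unadjusted p was that of Ndufb2 (0.158 by edgeR, adjusted p = 1.00). The standard error of this difference had a median of 0.30, larger than the median difference. Without cold HIF2α AKO replicate 1, one of the libraries with muscle transcripts, 20 of 35 members were larger in HIF2α AKO and the median was 0.04. With TN HIF2α AKO replicate 2, the other such library, left out as well, 34 of 35 were larger and the median was 0.20.

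In the cold, complex I transcripts had higher estimates in HIF2α AKO than in WT, but none of the differences passed the test. The log2 difference was above 0 in 35 of 35 members, from 0.08 in Ndufa13 to 0.46 in Ndufb2, with a median of 0.26 (a fold of 1.20) against -0.02 for all genes. By edgeR 0 of 35 passed, as against 0.00653% of all genes called higher. One member, Ndufb2, had an unadjusted p under 0.05, which 2.95% of all genes had. DESeq2 on all libraries and limma voom called 0 members as well, with 2 and 1 under the unadjusted limit (3.42% and 7.70% of all genes). DESeq2 on the 6 cold libraries called 0 with 5 under it (3.32% of all genes). Several of these subunits are among the genes that the study picked from these cold libraries, so their direction here is not independent evidence. The median fell to 0.10 without cold HIF2α AKO replicate 1, and the difference then lay between -0.05 and 0.25, above 0 in 34 members and below it in Ndufa13. That library held the highest level of its group in 35 of 35 members, and its sums were 1723 CPM for muscle markers and 8543 CPM for thermogenic markers, the highest of the cold libraries. In the other cold libraries, muscle markers summed to 14.5 to 20.7 CPM. Skeletal muscle markers were higher in cold HIF2α AKO in 12 of 12 genes, with 0 called, and Ckm, Myh4 and Pvalb were at 0 in 1 library each. Thermogenic markers had higher estimates in cold HIF2α AKO than in cold WT in 7 of 7 genes, with 0 called and a median log2 difference of 0.72. Their sums were 3326 to 4832 CPM in cold WT and 5585 to 8543 CPM in cold HIF2α AKO, without overlap. Macrophage markers had lower estimates in 9 of 9 genes, with 0 called and a median of -0.39, and their sums overlapped (1431 to 2777 CPM in cold WT, 1588 to 1819 in cold HIF2α AKO). The part of these markers in the difference was not tested.

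**Figure D4:**
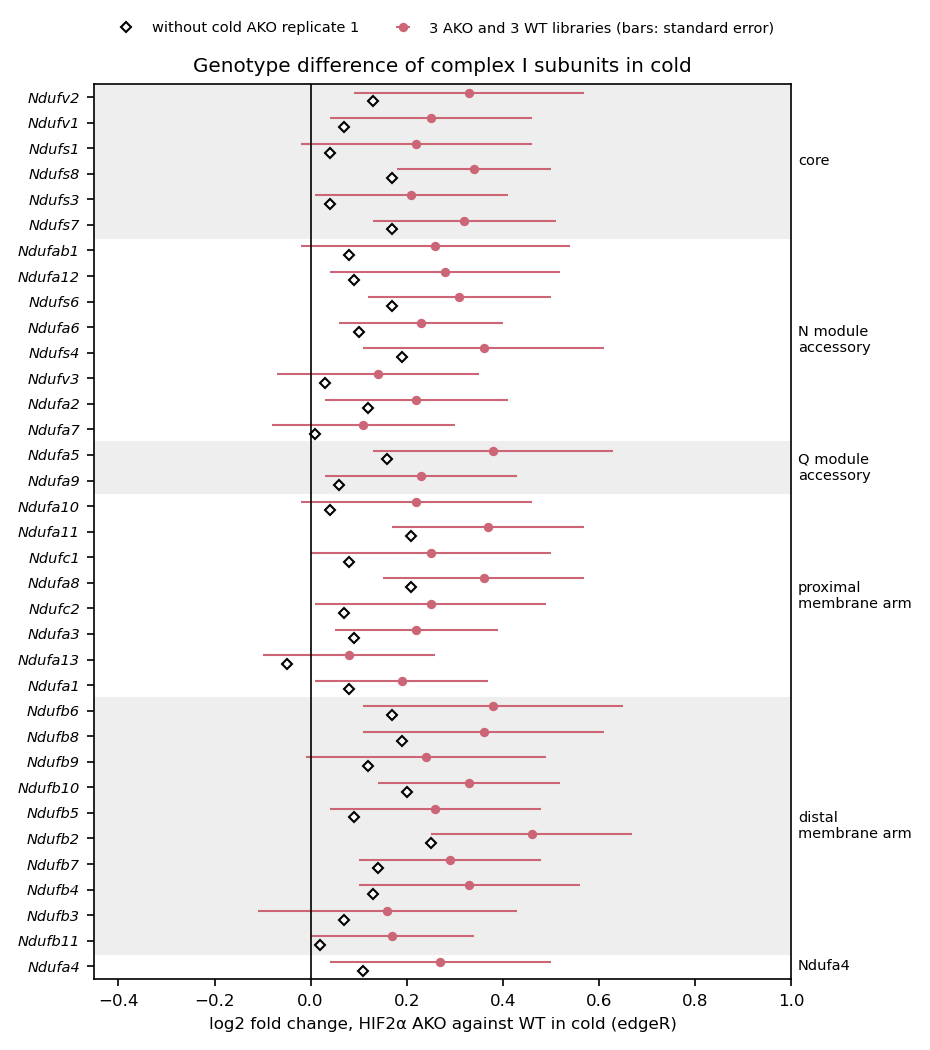
Log2 fold change of HIF2α AKO against WT in cold for the 35 tested members, from 3 and 3 libraries (filled points, bars are standard errors) and without cold HIF2α AKO replicate 1 (open diamonds), by role. The filled points lie between 0.08 and 0.46 and the diamonds between -0.05 and 0.25.

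Ndufb2, a small subunit of the distal membrane arm, stood at 54.1, 53.6 and 60.8 CPM in cold WT and at 97.9, 69.7 and 63.7 in cold HIF2α AKO, with 21.8, 18.4 and 30.1 in TN WT and 19.7, 28.8 and 22.2 in TN HIF2α AKO. The cold groups did not overlap and the TN groups did. Its difference in cold was 0.46 ± 0.21 on the log2 scale (SE, 0.0494 unadjusted by edgeR, adjusted p = 1.00) and 0.25 without cold HIF2α AKO replicate 1. Ndufa5, Ndufa8, Ndufa11 and Ndufb6 were the other members in which all cold HIF2α AKO libraries lay above all cold WT libraries, which makes 5 of 35 where 3.80% of all genes did so. The gaps were narrow. The lowest cold HIF2α AKO and highest cold WT values were 95.2 and 94.8 CPM in Ndufa5 and 148 and 146 in Ndufa8. They were 116 and 115 CPM in Ndufa11 and 129 and 124 in Ndufb6. At the other end stood Ndufa13, with 151, 145 and 190 CPM in cold WT and 199, 144 and 169 in cold HIF2α AKO, and its log2 difference was 0.08 ± 0.18 (SE, edgeR adjusted p = 1.00). At TN the members differed less between genotypes, from -0.03 to 0.21 with a median of 0.07, above 0 in 32 of 35. By edgeR 0 of 35 passed and 0 had an unadjusted p under 0.05 (2.91% of all genes did). In 0 of 35 did all HIF2α AKO libraries lie above all WT libraries (3.69% of all genes), and DESeq2 and limma voom called 0 too. Without both libraries with muscle transcripts the TN median was -0.06 and 10 of 35 were above 0.

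Genes that act on or beside complex I were read in the same fits. Of 16 assembly factors, 15 were called higher in cold over both genotypes, where 24.8% of all genes were, and 0 lower (24.0%). Their median log2 fold change was 0.78, against -0.05 for all genes, while that of the members was 1.50. The difference between the assembly factors and the members was not tested. Ndufaf4, which joins Ndufaf3 in assembling the Q module, changed most. It stood at 16.0, 14.8 and 19.3 CPM in TN WT, 14.7, 17.3 and 17.7 in TN HIF2α AKO, 35.1, 45.6 and 47.5 in cold WT and 70.4, 49.6 and 46.8 in cold HIF2α AKO. Its groups did not overlap between temperatures and its change was 1.55 ± 0.13 (SE, edgeR adjusted p = 1.44e-05). Tmem70, a factor for membrane arm and ATP synthase assembly, followed with 1.22 ± 0.17 (SE, edgeR adjusted p = 0.000381).

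At the lower end of the assembly factors stood Ndufaf3 itself, the partner of Ndufaf4, and Nubpl, which delivers iron-sulfur clusters. Ndufaf3 stood at 16.6, 13.5 and 20.6 CPM in TN WT, 14.1, 19.4 and 17.2 in TN HIF2α AKO, 22.1, 19.9 and 20.3 in cold WT and 21.8, 20.7 and 20.4 in cold HIF2α AKO. Its temperatures overlapped and its change was 0.30 ± 0.11 (SE, edgeR adjusted p = 0.0380). Nubpl had a log2 fold change of 0.26 ± 0.12 (SE, edgeR adjusted p = 0.0891) and was not called. Ndufa4l2, a paralog of Ndufa4 that HIF proteins are known to induce, lay between 3.47 and 9.04 CPM in all libraries and was not called over both genotypes (0.31 ± 0.19, SE, edgeR adjusted p = 0.185) or in HIF2α AKO against WT in cold (0.31 ± 0.26, SE, edgeR adjusted p = 1.00).

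The nuclear-encoded subunits of the other respiratory complexes rose in cold as well. Of 38 genes of complexes II to V, 37 were called higher over both genotypes, where 24.8% of all genes were, and 0 lower (24.0%). Their median log2 fold change was 1.56, against -0.05 for all genes. By complex the medians were 1.58 for complex II, 1.88 for complex III, 1.57 for complex IV and 1.43 for complex V, whose Atp5g1, a gene of the ATP synthase c subunit, was the exception at 0.28. The complex I sum divided by the sum of complexes II to V was 0.316 to 0.331 in the 6 TN libraries. In the 6 cold libraries this ratio was 0.294 to 0.309, slightly lower and without overlap. The complex I sum includes Ndufa4, now placed in complex IV, and the sum of complexes II to V does not. In HIF2α AKO against WT in cold the 38 genes had a median of 0.25 and the members 0.26. Of the 38 genes 0 were called, where 0.00653% of all genes were called higher.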

How the data were processed

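Each of 12 iWAT libraries came from 1 mouse, with 3 mice in each of 4 groups, assigned by their labels. The authors trimmed reads with Trim Galore 0.4.4, aligned them with STAR 2.6.1d to GRCm38 (mm10) and counted them with HTSeq 0.13.5, per the labels and the methods. The deposited values are whole read counts per gene without normalization. Which annotation and strand setting were used, and how long the reads were, is not given in the sources used here. Tables of single samples and the table of the series held identical counts. The 5 tallies of reads that fell outside genes (21.9 to 27% of reads listed) were left out.

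The software was edgeR 4.0.16, with limma 3.58.1 and DESeq2 1.42.0 for alternatives, in R 4.3.3. The function filterByExpr (minimum count 10, minimum total 15) kept 15306 genes. A quasi-likelihood model of 4 groups over all libraries was fitted after TMM normalization, and the Benjamini-Hochberg adjustment ran over every tested gene (limit 0.05). A gene at 0 counts could hold up to 3, for counting error only. For the fit relative to the other subunits, size factors came from the median of count ratios over the tested members. The fits for cold against TN over both genotypes were also run on simulated counts. These held no genotype difference, so the genotype tests were not covered. Values in every library are given for the core subunits, the 3 members with the largest and the 3 with the smallest cold response, those that stood apart from the other subunits (at most 3 in each direction), the 2 largest and 2 smallest genotype differences in cold, and the most and least changed assembly factors. Ndufa4 and Epas1 are shown as well. The members and lists were chosen with earlier results of these data known. Alternatives covered normalization, filter, tool, libraries in the fit, a replicate block and leaving out each library.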

Additional observations from a re-analysis of the deposited data

Results flagged for a closer look

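Reads that aligned to several places lie outside the gene counts. Their share of the listed reads had a median of 7.32% in the 6 cold libraries (6.30 to 9.33%) and 5.23% in the 6 TN libraries (4.40 to 5.71%), so the cold libraries lay above the TN libraries without overlap. It is given because Ndufs5 and 14 other members share stretches of exon with other genes. Which genes these reads came from was not analysed here.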

How the results depend on the processing

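Every member tested kept its direction in cold against TN over both genotypes under all alternatives but one. Counts scaled to the adipocyte markers, chosen after seeing the data, called 2 members in WT, 14 in HIF2α AKO and 22 over both genotypes, with median log2 fold changes of 0.35 in WT and 0.78 in HIF2α AKO, and Ndufa7 reversed to -0.11 over both genotypes. With library totals in place of TMM the median in WT was 1.09, while the median of all genes moved to -0.33. Leaving out 1 library gave 33 to 35 members called in WT and 35 in HIF2α AKO, medians of 1.19 to 1.57 in WT, 1.45 to 1.73 in HIF2α AKO and 0.10 to 0.37 for HIF2α AKO against WT in cold, and 7 to 10 members called relative to the other subunits. Of 280 values of named members under alternatives, 275 kept direction and call, 4 lost the call and 1 reversed. Same-numbered mice did not deviate together (5 of 18 correlations over 0.1, from -0.43 to 0.39), so the numbers were not read as pairs. A replicate block changed no count of members called for TMM-scaled counts (35 in WT, 35 in HIF2α AKO, 0 for genotype), moved the median of HIF2α AKO against WT in cold from 0.26 to 0.27, and called 9 in place of 10 relative to the other subunits. No genotype difference of a member passed the test with 3 mice a group, which does not show that the genotypes are alike.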
